A study of Homo sapiens with 12 samples.

Results

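Introns of noncoding transcripts held 2626 of the 26351 NONO peaks (9.97%) deposited for 22Rv1 cells, a human prostate cancer cell line. The members were chosen by the authors' annotation alone: every peak placed in an intron of a noncoding transcript, either within 500 nt of an exon (the proximal class, 539 peaks) or farther away (the distal class, 2087 peaks). NONO was mapped by eCLIP, in which UV light crosslinks protein to RNA, the protein is immunoprecipitated and the attached RNA pieces are read alongside an input library. Cells were grown for 40 h and received, for 4 h, 0.04% DMSO, or 20 µM SKBG-1(R) or 20 µM SKBG-1(S) in 0.04% DMSO, so all groups shared the solvent. SKBG-1(R) and SKBG-1(S) are the stereoisomers of 1 small molecule, in a study of compounds that target NONO. Each treatment had 2 replicates, each giving 1 peak list called against its own input, and whether replicates came from separate cultures is not stated, so the p-values here reflect the spread between the lists, which may be technical.

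NONO belongs to the DBHS family of nuclear RNA-binding proteins, works as a dimer with its relatives SFPQ or PSPC1, and is a core protein of paraspeckles, which are nuclear bodies assembled around the RNA NEAT1. Long noncoding RNAs are transcribed and spliced much as messenger RNAs are, and many stay in the nucleus. Some of them are primary transcripts of microRNAs: hairpins in their introns or exons are cut out and trimmed to short RNAs that pair with target messages through a seed at their 5′ end. NONO and SFPQ have been described on primary microRNA transcripts, so the hosts are ordered here with the microRNA hosts first, then antisense transcripts, then pseudogenes and noncoding isoforms of coding genes.

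The microRNAs encoded in the hosts that carried the peaks are shown first, because they give the leading hosts their names. The mature sequences are from RefSeq (GRCh38.p14), written 5′ to 3′ with the seed, bases 2 to 8, in capitals. MIRLET7BHG encodes let-7a-5p (chromosome 22, 46112752 to 46112773, plus strand) and let-7b-5p (46113691 to 46113712), the host RP11-631N16.2 (now MIRLET7IHG) encodes let-7i-5p, and DLEU2 encodes miR-15a-5p and miR-16-5p on chromosome 13.
hsa-let-7a-5p: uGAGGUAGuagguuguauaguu
hsa-let-7b-5p: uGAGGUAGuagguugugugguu
hsa-let-7i-5p: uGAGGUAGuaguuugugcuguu
hsa-miR-15a-5p: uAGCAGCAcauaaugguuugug
hsa-miR-16-5p: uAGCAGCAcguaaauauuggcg
The 3 let-7 sequences share 1 seed, and the DLEU2 pair shares another.

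Regions bound by NONO are shown next, for the hosts with the most peaks, where a reference table covered them. Peaks of different lists that overlapped by at least 1 nt on the same strand were merged into a region. Letters are given on the strand of the host RNA, with runs of at least 4 G in capitals. The first lies in MIRLET7BHG at chr22:46071578-46071680 (plus strand), held peaks in 5 lists and is in RefSeq's promoter window of LOC124905135. The second is the middle 30 nt of the stretch that all 6 lists share within a region, in RP11-475N22.4 (GATA2-AS1 in GENCODE 29) at chr3:128492966-128492995 (plus strand), opposite an exon of GATA2. The third lies in RP5-1103G7.4 (NRSN2-AS1) at chr20:325926-326036 (minus strand), opposite an exon of SOX12, and held peaks in 4 lists. A second GATA2-AS1 region, at chr3:128493246-128493393 (plus strand) in RefSeq's promoter window of GATA2, was added after its values were seen, for its G runs. Exon sequence is from GENCODE 29 and promoter windows from RefSeq (GRCh38.p14).
MIRLET7BHG region: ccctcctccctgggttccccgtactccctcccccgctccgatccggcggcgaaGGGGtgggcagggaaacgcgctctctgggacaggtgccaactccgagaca
GATA2-AS1 region in 6 lists: ggtgcgcggcaggcgggctcgcgggacctg
NRSN2-AS1 region: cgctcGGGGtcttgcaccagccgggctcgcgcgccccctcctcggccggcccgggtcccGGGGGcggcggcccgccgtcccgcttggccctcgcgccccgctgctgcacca
GATA2-AS1 region in 4 lists: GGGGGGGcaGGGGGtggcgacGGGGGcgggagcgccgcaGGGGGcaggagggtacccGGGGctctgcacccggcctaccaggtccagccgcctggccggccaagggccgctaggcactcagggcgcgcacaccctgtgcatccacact
G and C make up 69.9%, 83.3%, 83.8% and 77.0% of their bases in the order printed, beside medians of 59.2%, 60.0%, 58.6% and 58.8% for the middle bases of promoter windows of the same lengths. A region had sequence only if a promoter window or an exon covered it, and of the 4 regions not printed the one opposite CLIP3 had 60.0%. The motif GGGG was searched on the RNA strand, and as CCCC for the other strand. It is in 5 of the 8 regions with sequence on the RNA strand and in 4 on the other. Of the middle bases of 35116 RefSeq promoter windows, GGGG on the gene's strand is in 46.1% of windows of 103 nt, 48.4% of 111 nt and 56.8% of 148 nt, so a match in these windows is common. CCCC is in 44.97%, 47.1% and 55.5%. Only 333 members (12.7%) had a reference sequence, so base composition was not compared over the class.

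The lists were of very different length, from 669 to 14847 peaks. Replicate 2 was the longer in each group, and read depth is not given in the files. DMSO replicate 1 had 134 members of 669 peaks (20.0%, 95% Wilson interval 17.2 to 23.2, which covers counting error only). DMSO replicate 2 had 387 of 3678 (10.5%, 9.57 to 11.6), SKBG-1(R) replicate 1 had 207 of 1953 (10.6%, 9.31 to 12.04) and SKBG-1(R) replicate 2 had 1271 of 14847 (8.56%, 8.12 to 9.02). SKBG-1(S) replicate 1 had 210 of 1237 (17.0%, 14.99 to 19.2) and SKBG-1(S) replicate 2 had 417 of 3967 (10.5%, 9.60 to 11.5). The highest shares were in DMSO replicate 1 and SKBG-1(S) replicate 1, the shortest lists, and the groups overlapped.

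**Figure D1:**
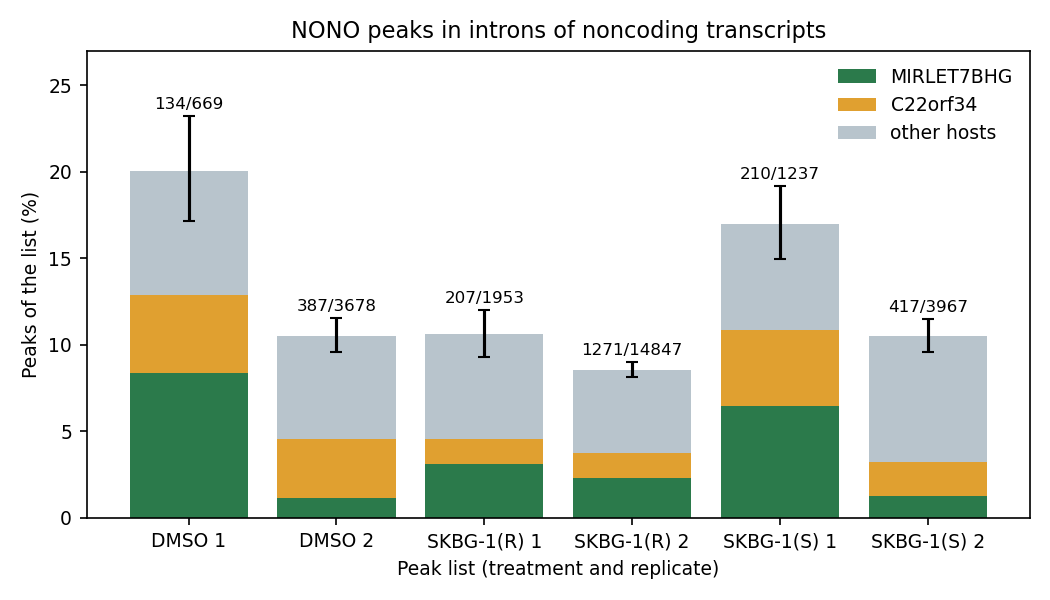
Share of each peak list that lay in introns of noncoding transcripts (percent of the list's peaks), split by host, with the 95% Wilson interval of the whole share and the counts above it. The bars run from 8.56% to 20.0%, and MIRLET7BHG and C22orf34 together make up much of the difference: the other hosts take 4.80 to 7.29% of every list.

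The label of the class held for most members. By the gene types in the authors' annotation, long noncoding RNA genes hosted 2140 members (81.5%, 106 hosts) and pseudogenes 214 (8.15%, 22 hosts). All 169 hosts were matched to GENCODE 29 by gene identifier. A further 207 (7.88%, 35 hosts) were in noncoding isoforms of coding genes, 152 of which came from SKBG-1(R) replicate 2. The other 65 (2.48%, 6 hosts) were annotated to overlapping genes of different types. Hosts with a joint name whose genes share a type are counted under that type. The members were concentrated in few transcripts. MIRLET7BHG and C22orf34 held 44.3% of them and the first 20 hosts 77.1%, whereas the 2 leading genes among 21115 peaks in introns of coding genes held 4.43%. Leaving out any list kept the share of MIRLET7BHG and C22orf34 between 42.6 and 46.9%. Both genes lie on chromosome 22, which held 46.8% of members and 3.77% of coding-gene intron peaks. Of the 169 hosts, 79 had peaks in 1 list only, 56 of these in SKBG-1(R) replicate 2, 36 had at least 10 peaks and 13 had peaks in all 6 lists. Without SKBG-1(R) replicate 2 there were 113 hosts.

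MIRLET7BHG, the host of let-7a-3 and let-7b (chr22:46053869-46113928, plus strand, GRCh38), held 632 members, the most of any host over the 6 lists together. Of these 344 were in SKBG-1(R) replicate 2, and without that list C22orf34 came first with 23.4% of members. MIRLET7BHG had 56 and 42 in DMSO replicates 1 and 2, 61 and 344 in those of SKBG-1(R), and 80 and 49 in those of SKBG-1(S). Per 10000 peaks of the list this was 837 and 114 for DMSO, 312 and 232 for SKBG-1(R), and 647 and 124 for SKBG-1(S). Every replicate 1 list was above every replicate 2 list, and the treatments overlapped. Among the replicate 2 lists the longest, that of SKBG-1(R), had the highest level. The part of list length in this was not tested.

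The MIRLET7BHG peaks ran over a long stretch of its introns. All 632 members lay upstream of let-7a-3, the nearest 3601 nt away. A peak over a hairpin or an exon falls in another class of the authors' annotation and could not be a member, so this gap says nothing of binding at the hairpins. In those classes, 30 peaks in exons of MIRLET7BHG lay between 26.4 and 60.0 kb from the start, the nearest 59 nt from let-7a-3, and peaks annotated to microRNAs overlapped miR-4763 (2 peaks) and let-7b (1 peak), all 3 in SKBG-1(R) replicate 2, and miR-3619 (1 peak in each SKBG-1(R) list). The members began 7.42 kb from the start of the gene and ended at 55.3 kb, against 58.9 kb for let-7a-3. The fullest 2-kb bin, 16 to 18 kb from the start, held 111 peaks and had some from every list. Of 25 bins, 10 held peaks of all 6 lists, with 410 of the 632 peaks (64.9%). In the replicate 1 lists the median peak lay 28.5, 42.7 and 39.0 kb from the start for DMSO, SKBG-1(R) and SKBG-1(S), against 17.4, 32.7 and 17.9 kb in the replicate 2 lists. Another hairpin in the transcript, miR-3619, had 23 members within 1 kb, the nearest 119 nt away.

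**Figure D2:**
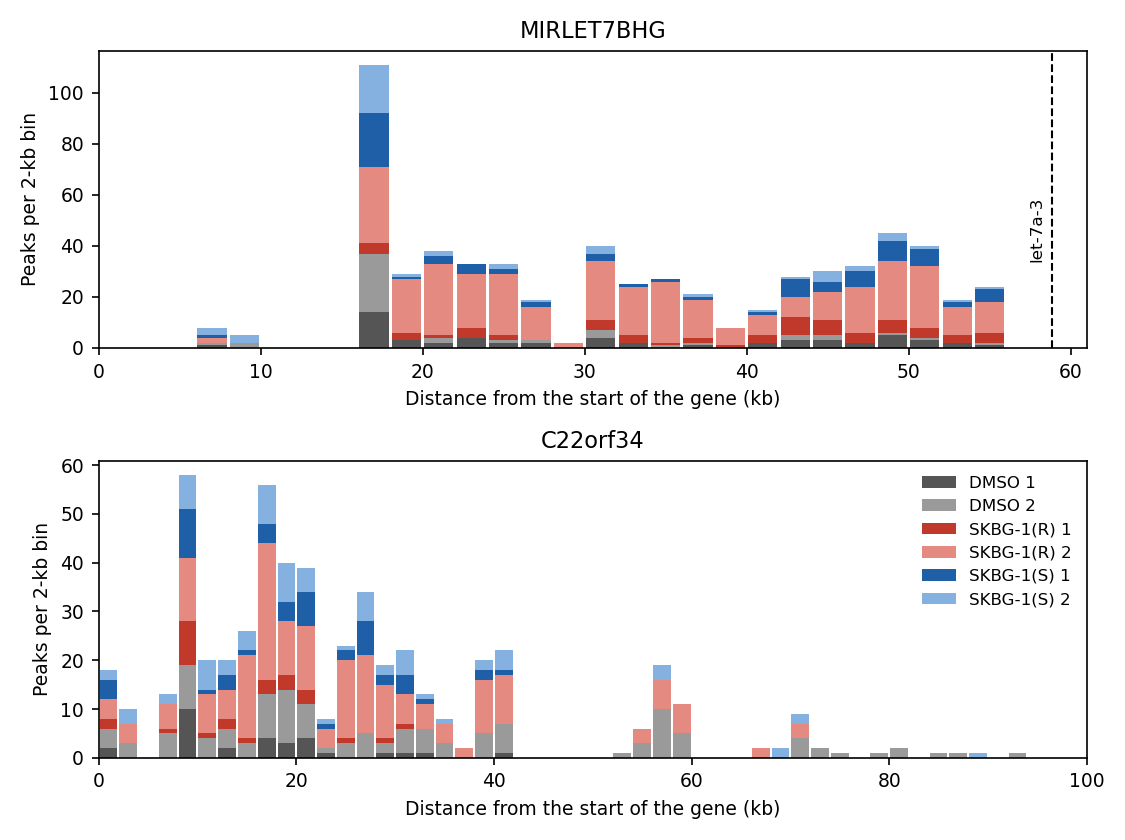
Number of noncoding intron peaks in 2-kb bins along MIRLET7BHG (top) and C22orf34 (bottom), by distance in kb from the start of the gene, stacked by peak list. The dashed line marks let-7a-3 at 58.9 kb. MIRLET7BHG peaks lie between 7.42 and 55.3 kb with 111 in the bin at 16 to 18 kb, and C22orf34 peaks have a median of 20.1 kb in a gene of 243 kb.

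The other microRNA hosts had fewer peaks. DLEU2, the host of miR-15a and miR-16-1 in a region of chromosome 13 often deleted in leukaemia, held 77 members: 2 and 12 in the DMSO lists, 6 and 24 in those of SKBG-1(R), and 9 and 24 in those of SKBG-1(S). Per 10000 peaks these were 29.9 and 32.6, 30.7 and 16.16, and 72.8 and 60.5, so both SKBG-1(S) lists were above the other 4. All 77 lay upstream of the hairpins, the nearest 31811 nt from miR-15a, at a median of 858 nt from an annotated transcription start of the host. RP11-631N16.2 (MIRLET7IHG) held 15 members, all upstream of and within 1 kb of let-7i, the nearest 59 nt away. MIR17HG, the host of the miR-17 to miR-92a cluster, held 12 members, all upstream, the nearest 1589 nt from miR-17. By GENCODE 29, 19 hosts contained 38 hairpins and 1437 members (54.7%), C22orf34 among them, and most of these members lay in MIRLET7BHG and C22orf34. Of a list of 25 genes named as microRNA hosts, which did not include MIRLET7IHG or DLEU2, 4 held a member: MIRLET7BHG, MIR17HG, MIR29B2CHG with 4 and MIR9-3HG with 2.

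C22orf34 (now MIR3667HG, chr22:49414524-49657542, minus strand), a long intergenic noncoding RNA, held 531 members. It had 30 and 126 in the DMSO lists, 28 and 214 in those of SKBG-1(R), and 54 and 79 in those of SKBG-1(S), or 448 and 343, 143 and 144, and 437 and 199 per 10000 peaks. Both SKBG-1(R) lists were below the other 4. All 531 lay upstream of the miR-3667 hairpin, the nearest 21437 nt away. All 531 lay in a first intron, with a median of 20.1 kb from the start, and 8 bins of 2 kb with peaks in all 6 lists held 272 of them (51.2%).

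Members opposite a coding gene were common. On the strand opposite a protein-coding gene lay 15.4% of members and 2.41% of coding-gene intron peaks. The member share was the higher in each of the 6 lists, from 6.72% against 0.665% in DMSO replicate 1 to 19.7% against 2.10% in SKBG-1(S) replicate 2. No test was made of this. The noncoding class includes transcripts annotated as antisense, with 652 members (24.8%, 55 hosts), so a higher share is in part built into the class. The comparison therefore does not measure a preference of NONO. eCLIP keeps the strand, and the peaks are those on the host's strand.

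GATA2-AS1 runs opposite GATA2, a zinc-finger transcription factor of the GATA family. It held 111 members: 7 and 26 in the DMSO lists, 9 and 37 in those of SKBG-1(R), and 12 and 20 in those of SKBG-1(S), or 105 and 70.7, 46.1 and 24.9, and 97.0 and 50.4 per 10000 peaks. The SKBG-1(R) lists were the lowest, and SKBG-1(R) replicate 1 lay close to SKBG-1(S) replicate 2. Of its members, 51 lay opposite GATA2 itself and 54 within 1 kb of a GATA2 start site. The region printed above with 7 G at its 5′ end had a log2 enrichment over input, the authors' value, of 4.62 in DMSO replicate 1, 4.34 and 3.62 in those of SKBG-1(R) and 3.36 in SKBG-1(S) replicate 1.

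NRSN2-AS1 held 71 members: 1 and 10 in the DMSO lists, 4 and 30 in those of SKBG-1(R), and 8 and 18 in those of SKBG-1(S). Per 10000 peaks the SKBG-1(S) lists, at 64.7 and 45.4, were above the other 4, which lay between 14.9 and 27.2. Of its members, 32 lay opposite SOX12, a SoxC transcription factor gene, and 22 opposite NRSN2. CTB-50E14.6 (LIPE-AS1) held 42 members, 41 of them opposite LIPE, the hormone-sensitive lipase gene, and was at 0 in DMSO replicate 1. AF196970.3 held 28, of which 21 lay opposite SUV39H1, a histone H3 lysine methyltransferase gene, and AC002116.7 held 26, of which 25 lay opposite CLIP3. AC093415.2 (ITGA9-AS1) held 26, with 16 within 1 kb of the start of CTDSPL on the other strand. RP13-25N22.1 (KRTAP5-AS1) held 45, and its SKBG-1(S) lists had 64.7 and 35.3 per 10000 against 7.41 to 30.7 in the other 4. GAS6-AS1 had 41 members, all in SKBG-1(R) replicate 2.

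Pseudogene transcripts were led by SUZ12P (SUZ12P1), a copy of the Polycomb gene SUZ12, with 56 members, CTD-2547E10.2 (SMG1P3) with 44, PKD1P6 with 43 and AP000344.1 (CES5AP1) with 23. SUZ12P had 4 and 8 members in the DMSO lists, 7 and 20 in those of SKBG-1(R), and 4 and 13 in those of SKBG-1(S), and 48.2% of them were proximal. These genes resemble their parents, and how reads that fit both were placed is not given in the sources used here, so their counts are uncertain. Among noncoding isoforms of coding genes FBXL18, an F-box gene, had 51 members, 50 of them in SKBG-1(R) replicate 2. LINC00511 had 53, with 0 in DMSO replicate 1 and SKBG-1(S) replicate 1 and 29 in SKBG-1(R) replicate 2. The joint host AC007240.1/AC104794.5 had 54, of which 17 each were in DMSO replicate 2 and SKBG-1(S) replicate 2, and CTD-2547E10.2 and AP000344.1 had members in every list. LINC00963 had 32 and RP11-54O7.16 had 18.

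**Figure D3:**
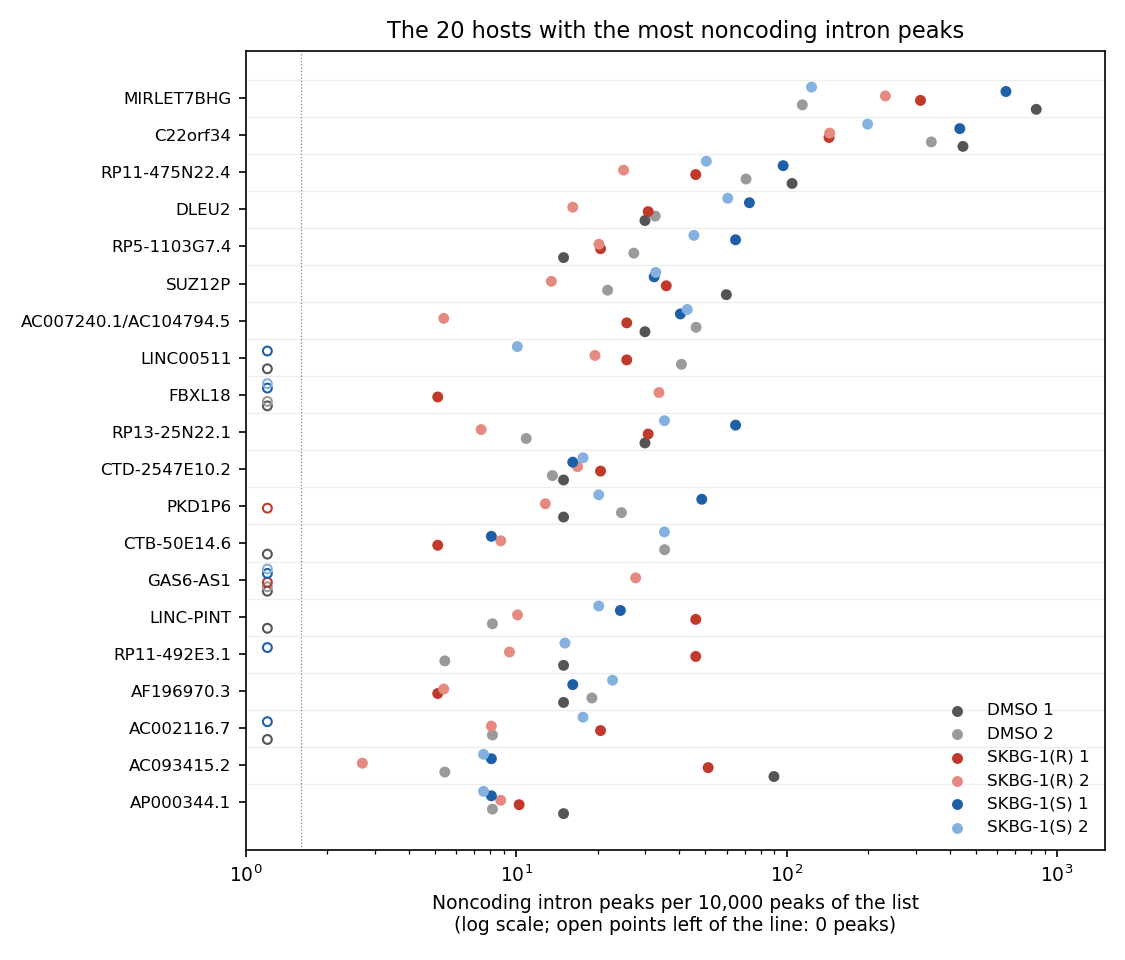
Noncoding intron peaks per 10000 peaks of the list (log axis) for the 20 hosts with the most, 1 point per list, with open points for lists without a peak. MIRLET7BHG spans 114 to 837, and GAS6-AS1 has peaks in SKBG-1(R) replicate 2 alone.

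Several lists of known RNAs were looked up among the members. Of 24 nuclear long noncoding RNAs, 5 held a member: DLEU2 with 77, LINC-PINT, a p53-induced RNA, with 41 counting joint names, PVT1, a neighbour of MYC, with 4, FTX, a regulator of XIST, with 2 and DLEU1 with 2. The paraspeckle RNA NEAT1 and MALAT1 were on this list and held no member, with 2 peaks each in other classes. A peak in an exon could not be a member, so this says nothing of binding to their exons. All 38 members annotated to LINC-PINT alone were proximal, with a median of 279 nt from a transcription start. Of 17 snoRNA host genes 1 held a member, SNHG29 with 1 peak in SKBG-1(R) replicate 2. Of 21 long noncoding RNAs described in prostate cancer 1 did, PRRT3-AS1 with 6: 0 and 1 in the DMSO lists, 1 and 2 in those of SKBG-1(R), and 0 and 2 in those of SKBG-1(S). None of 5 markers of other cell types or 10 genes of paraspeckle proteins held a member. Of the latter 4 had peaks of other classes, DAZAP1 with 126, RBM14 with 35, MATR3 with 21 and HNRNPM with 1. In lists of peaks above a minimum this sets no limit on binding. Among the prostate markers, TMPRSS2 had 5 peaks of other classes.

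Merging the members over lists gave 1371 regions. In 1 list only were 942 (68.7%), 700 of these from SKBG-1(R) replicate 2, and 217, 108, 62, 22 and 20 were in 2, 3, 4, 5 and 6 lists. C22orf34 held 9 of the 20 regions with peaks in every list, MIRLET7BHG 5, GATA2-AS1 4, and DLEU2 and KRTAP5-AS1 1 each. Because merging can link peaks end to end, the lists of a region need not share a base. The value of a list in a region is that of its strongest peak there. Ranked by their weakest list, the first was in DLEU2 at chr13:50123972-50124397 (minus strand), with 25 peaks. Log2 enrichments were 3.85 and 5.03 in the DMSO lists, 4.79 and 5.51 in those of SKBG-1(R), and 4.10 and 5.59 in those of SKBG-1(S). The replicate 2 value was the higher in each group, and those lists were the longer. The part of list length in this was not tested. All 6 lists shared 60 nt of the DLEU2 region. The next were in C22orf34 at chr22:49640917-49641007, with 3.66 to 4.67, and in GATA2-AS1 at chr3:128497431-128497574, with 3.57 to 4.28 and at chr3:128493067-128493213, with 3.56 to 4.39. The fifth was in C22orf34 at chr22:49647822-49647890, with 3.51 to 4.50. Of the regions with peaks in both lists of a group, 0 of 38 for DMSO, 16 of 112 for SKBG-1(R) (14.3%) and 4 of 81 for SKBG-1(S) (4.94%) had none in another list. Among regions of coding-gene introns these shares were 1.38%, 16.5% and 3.39%. Of the 16 regions, 8 were in MIRLET7BHG, and the 4 were in NRSN2-AS1, SUZ12P, AF196970.3 and LIPE-AS1. These counts move with the length of the lists, which is greatest for SKBG-1(R).

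Members were then compared with peaks in introns of coding genes within each list, over 6 measures, so that list length was shared. An exact two-sided sign-flip test over 6 lists cannot give a p below 0.031, and adjusted values are Benjamini-Hochberg over the 6 measures. The members were less often proximal in each list: 22.4% against 45.9% in DMSO replicate 1, 17.6% against 25.7% in DMSO replicate 2, 31.4% against 48.9% and 18.4% against 20.8% for SKBG-1(R), and 23.3% against 48.7% and 22.3% against 35.0% for SKBG-1(S). The mean difference was -14.9 percentage points ± 8.90 (SD, n = 6 lists; exact p = 0.031, adjusted p = 0.0938), which did not pass the threshold of 0.05. Without MIRLET7BHG and C22orf34 it was -3.67 points, with SKBG-1(R) replicate 2 then the other way. The members were also narrower, by 1 to 10 nt, with medians of 57 to 67 nt against 58 to 76 nt (exact p = 0.031, adjusted p = 0.0938), and without those hosts the mean difference was 0.0 nt.

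The other measures were mixed. The median log2 enrichment of members was 3.54 to 3.85, against 3.59 to 3.77 for coding-gene introns, higher in 3 lists and lower in 3 (exact p = 0.5). The median −log10 p was higher in 5 of 6 lists (mean difference 1.55, exact p = 0.0938, adjusted p = 0.141), from 11.05 against 6.82 in SKBG-1(R) replicate 2 to 4.67 against 5.16 in SKBG-1(R) replicate 1, the list that went the other way. Without MIRLET7BHG and C22orf34 the difference ran from -0.329 in SKBG-1(R) replicate 1 to 0.629 in SKBG-1(S) replicate 2. DMSO replicate 1 and SKBG-1(R) replicate 2 were then also below 0. Members overlapped a peak of the other replicate in 36.6% and 14.2% of cases in the DMSO lists, 66.7% and 15.03% in those of SKBG-1(R), and 51.0% and 28.3% in those of SKBG-1(S). For coding-gene introns these were 35.3% and 5.96%, 54.1% and 8.31%, and 54.9% and 17.3%. The mean difference was 5.99 points ± 6.23 (SD, n = 6 lists; exact p = 0.0938, adjusted p = 0.141), with SKBG-1(S) replicate 1 the other way. The 2 lists of a group were scored against each other, so their values are not independent, as the test takes them to be. Without MIRLET7BHG and C22orf34 the overlap differences ran from -8.17 points in DMSO replicate 1 to 10.9 in SKBG-1(S) replicate 1. The other lists were then above 0. Position along the gene, from 0 at its start to 1 at its end, differed by 0.0922 on average (exact p = 0.156, adjusted p = 0.188), and by -0.0244 without MIRLET7BHG. Without C22orf34 as well, the position differences ran from -0.0148 in SKBG-1(R) replicate 2 to 0.109 in DMSO replicate 1, with the other lists above 0. First introns held 83.3% of members and 82.9% of coding-gene intron peaks over all lists together, but single lists differed. In the DMSO lists these shares were 82.8% against 91.6% and 90.4% against 84.2%. They were 80.2% against 94.5% and 81.4% against 79.2% in those of SKBG-1(R). For SKBG-1(S) they were 83.3% against 91.0% and 84.2% against 86.9%. No test was made of first introns.

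**Figure D4:**
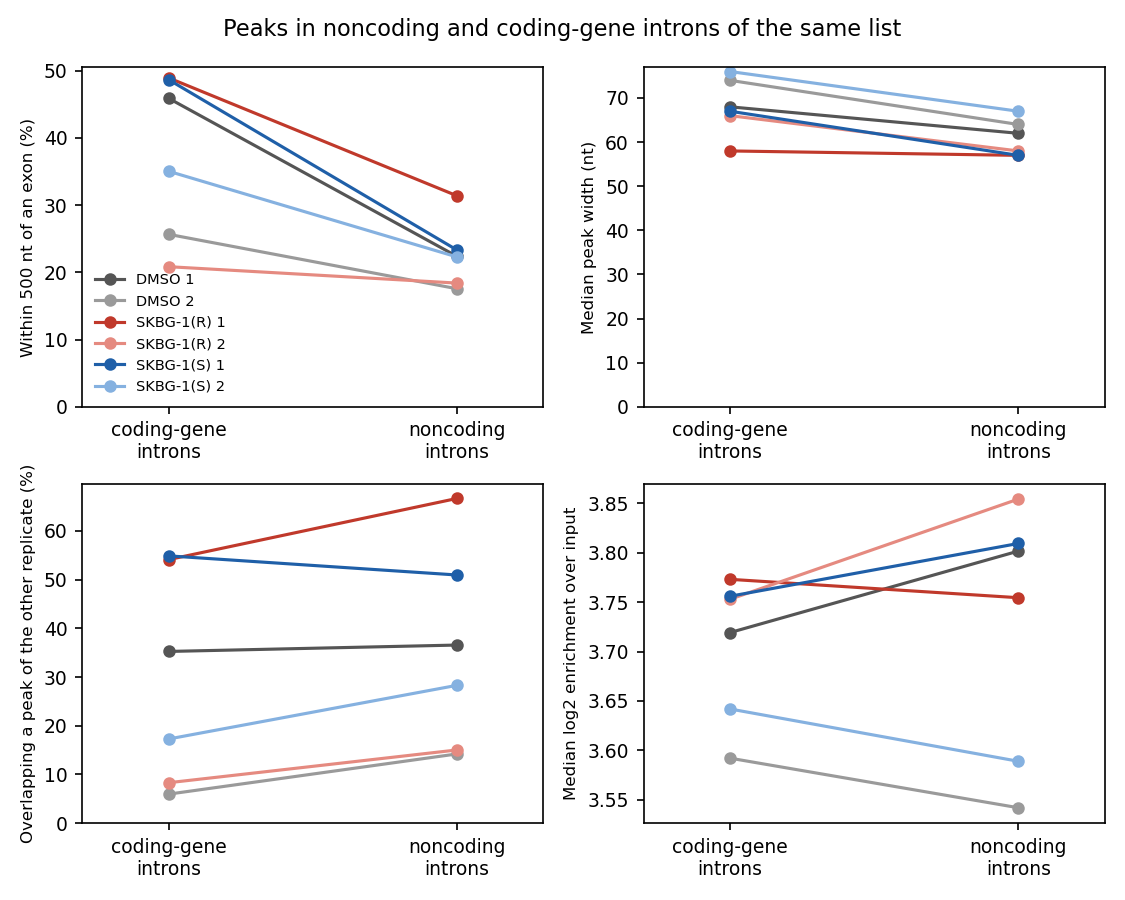
Proximal share, median peak width, overlap with the other replicate and median log2 enrichment for peaks in coding-gene introns (left point) and noncoding introns (right point), 1 line per list. All 6 lines fall for the proximal share and the width, and the enrichment axis does not start at 0.

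The share of the list was compared first, to ask whether either compound altered how much of NONO binding lay in noncoding introns. The mean share was 15.3% ± 6.72 in DMSO, 9.58% ± 1.44 with SKBG-1(R) and 13.7% ± 4.57 with SKBG-1(S) (SD, n = 2 lists each). SKBG-1(R) minus DMSO was -5.70 percentage points, and the 4 pairs of lists gave -11.5 to 0.0771. SKBG-1(S) minus DMSO was -1.53 points, with pairs from -9.52 to 6.45, and turned to 3.22 without DMSO replicate 1 and 1.70 without SKBG-1(S) replicate 2. SKBG-1(R) minus SKBG-1(S), the stereoisomers at the same dose and time, was -4.16 points, with pairs from -8.42 to 0.0874. Between lists of the same replicate number the differences for replicates 1 and 2 were -9.43 and -1.96 points for SKBG-1(R) minus DMSO, -3.05 and -0.0103 for SKBG-1(S) minus DMSO, and -6.38 and -1.95 between the stereoisomers. Both were below 0 in each comparison, and an exact sign-flip test over 2 pairs cannot give less than 0.5. Without regard to the number, each comparison had an exact two-sided permutation p of 0.667, and 2 lists against 2 cannot give less than 0.33. Without DMSO replicate 1 the SKBG-1(R) difference was -0.942, and without SKBG-1(S) replicate 1 the stereoisomers differed by -0.932. These spreads leave both no difference and shifts of several points possible.

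Single hosts were tested on peaks of any class per 10000 peaks of the list with limma, as log2 values after adding a prior count of 2, in 1 fit over all 478 genes with at least 10 peaks. Of the 169 hosts, 44 passed this filter, and 24 when SKBG-1(R) replicate 2, the longest list, was left out. For SKBG-1(R) against DMSO none of the 44 hosts passed an adjusted p of 0.05, beside 0.0% of the 478 genes, and none had an unadjusted p under 0.05, beside 3.14% of genes. For SKBG-1(S) against DMSO none passed, beside 0.0%, and none had an unadjusted p under 0.05, beside 1.26%. Between the stereoisomers none passed, beside 0.0%, and none had an unadjusted p under 0.05, beside 1.05%. The median log2 fold change of the 44 hosts was 0.02, 0.15 and -0.18 in these comparisons, beside 0.23, 0.14 and -0.08 over all genes. The 95% interval of a host reached a median of 2.08 log2 units to each side. It is not adjusted for the 478 genes, so changes of that size and larger could have been missed. With the replicate number as a block still no host passed the adjusted threshold, beside 0.209%, 0.0% and 0.0% of genes, the 1 gene being AFF3 for SKBG-1(R) against DMSO. In that fit 4, 2 and 4 hosts (9.09%, 4.55% and 9.09%) had an unadjusted p under 0.05, beside 7.74%, 4.39% and 6.49% of genes.

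The 2 higher and 2 lower hosts with the smallest p in each comparison were these. For SKBG-1(R) against DMSO, LINC-PINT had 0 and 4 peaks in the DMSO lists against 12 and 18 in those of SKBG-1(R), or 0 and 10.9 against 61.4 and 12.1 per 10000, a log2 fold change of 1.98 (95% interval -0.27 to 4.23, limma adjusted p = 0.991). The SKBG-1(R) lists were both above the DMSO lists, replicate 2 only just. FBXL18 had 0 and 5.44 per 10000 in the DMSO lists against 5.12 and 51.2 in those of SKBG-1(R), a log2 fold change of 1.78 (-0.61 to 4.17). It came from replicate 2, without which FBXL18 had 5 peaks in all and missed the filter. C22orf34, counted over all classes, had 448 and 372 per 10000 in the DMSO lists against 143 and 158 in those of SKBG-1(R), a log2 fold change of -1.41 (-3.01 to 0.18, limma adjusted p = 0.991, and 0.418 with the replicate block). These groups did not overlap, and the fold change was -0.79 with TMM scaling, which sets list size by the trimmed mean of gene ratios. MIRLET7IHG had 44.8 and 10.9 per 10000 in the DMSO lists against 5.12 and 2.02 in those of SKBG-1(R), from 1 to 4 peaks a list (-1.79, -4.16 to 0.57). Single lists moved these values: leaving out SKBG-1(R) replicate 1 gave 1.05 for LINC-PINT and leaving out DMSO replicate 2 gave 2.90, and MIRLET7IHG was -1.02 and -2.65 without DMSO replicates 1 and 2.

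For SKBG-1(S) against DMSO, LINC-PINT had the smallest p of the hosts, with 32.3 and 30.3 per 10000 with SKBG-1(S) and a log2 fold change of 2.10 (-0.15 to 4.35, limma adjusted p = 1.0). Both comparisons share the DMSO lists, in which it had 0 and 4 peaks. KRTAP5-AS1 had 44.8 and 13.6 per 10000 in the DMSO lists against 105 and 47.9 in those of SKBG-1(S) (1.34, -0.73 to 3.41), and the difference was 0.62 without DMSO replicate 2 and 2.10 without DMSO replicate 1. MIRLET7IHG had 0 and 12.6 with SKBG-1(S) (-1.64, -4.01 to 0.72). ITGA9-AS1 had 89.7 and 8.16 in the DMSO lists against 8.08 and 10.1 in those of SKBG-1(S) (-1.35, -3.78 to 1.08), and without DMSO replicate 1 the difference was 0.10. For SKBG-1(R) against SKBG-1(S), DLEU2 had 30.7 and 17.5 per 10000 against 80.8 and 65.5, without overlap, a log2 fold change of -1.47 (-3.40 to 0.46, limma adjusted p = 0.995). PKD1P6 had 0 and 12.8 against 48.5 and 20.2 (-2.03, -4.26 to 0.20), and the difference was -1.08 without SKBG-1(R) replicate 1. FBXL18 (1.81, -0.58 to 4.20) and MICALL2 (1.47, -0.59 to 3.53), an actin-linked adaptor gene, were the higher ones by value. They passed the filter only through SKBG-1(R) replicate 2, without which they had 5 and 1 peaks, so their fold changes describe that list. Where a list or group is at 0, the fitted fold change is set in part by the prior count and gives no bound.

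**Figure D5:**
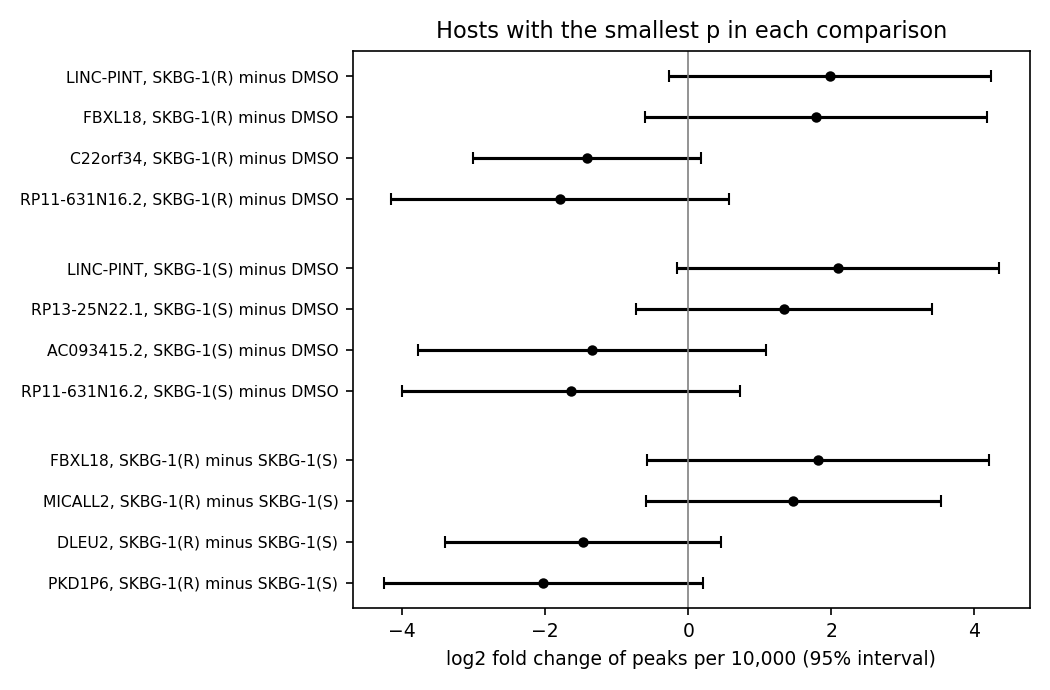
log2 fold change of peaks per 10000 with its 95% limma interval for the 2 higher and the 2 lower hosts with the smallest p in each comparison. Every interval crosses 0, as for LINC-PINT at 1.98 (-0.27 to 4.23) with SKBG-1(R).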

How the data were processed

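The authors deposited 1 peak list per immunoprecipitation, each called with the matching input and none on pooled libraries. The deposited columns are a −log10 p of immunoprecipitated against input reads and a log2 enrichment over input, with minima of 3 each, and the class of region is the authors' annotation. The tools named are cutadapt 1.9 and STAR 2.4.0i, per the submitters' processing notes, and the peak caller is not given in the sources used here. Coordinates are GRCh38. Groups come from the sample titles.

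The members, gene lists and tests were chosen with earlier results of these data known. Hosts were matched to GENCODE 29. Named are the 20 hosts with the most members, hosts in all 6 lists, list genes with a member, and, with fold changes, the 2 higher and 2 lower hosts with the smallest p per comparison. Genes with at least 10 peaks were fitted with limma 3.58.1 (R 4.3.3) on log2 peaks per 10000 with a trended variance, at a Benjamini-Hochberg threshold of 0.05. The fit was tested on simulated lists. Shares were compared by exact permutation of lists, and classes by exact sign-flips over lists (SciPy 1.17.1).

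Same-numbered lists deviated together from their group means (correlations of 0.54, 0.57 and 0.42 over 478 genes). Replicate 2 was also the longer list in each group, so pairing and list length cannot be told apart in these correlations. A fit with the replicate number as a block, which takes the numbers to pair the lists, was also made. Other alternatives were stricter limits, equal list sizes, other scaling and filters, leaving out hosts, and leaving out each list; leaving out C22orf34 with MIRLET7BHG was added after seeing the data. Depth is unknown, so the number of peaks per list, 669 to 14847, limits precision. Planned measures of base composition were not run, since 12.7% of members had sequence and 80% was required. Promoter windows and first exons gave the same bases in 10775 of 10775 overlaps of 50 nt.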

Additional observations from a re-analysis of the deposited data

How the results depend on the processing

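Of 283 alternative values, 269 kept their direction and their side of the threshold. Many could not have crossed the threshold, so keeping a side of it is no evidence of robustness. The share tests cannot reach 0.05 with 2 lists a group, nor can the sign-flip tests with 1 list left out. Some settings also returned an unchanged fold change. For SKBG-1(R) against DMSO, LINC-PINT stayed at 1.98 without the filter and with at least 20 peaks. The share of the list kept its direction for SKBG-1(R) against DMSO under every alternative run. With equal list sizes that difference was -2.69 points. The SKBG-1(R) lists, at 6.43% and 30.2%, then lay on either side of the DMSO lists, at 20.0% and 22.0%. For SKBG-1(S) against DMSO the share difference ran from -6.29 to 3.22 points as single lists were left out. For the stereoisomers it was -0.30 with equal list sizes and turned to 1.46 when genes holding a peak were counted in place of peaks. No host passed in any comparison, with 0 to 3 when single lists were left out: the 3, HAGHL, RP11-1055B8.3 and RP4-536B24.3, came without SKBG-1(R) replicate 1, in both comparisons with SKBG-1(R) (7.14% of 42 hosts, beside 5.12% of 449 genes), and had all their peaks (16, 10 and 15) in SKBG-1(R) replicate 2. That fit assumes that the lone list varies like the other groups. With the replicate block 0 hosts passed, the mean paired share differences were -5.70, -1.53 and -4.16 points, and the block called 1 other gene, AFF3, for SKBG-1(R) against DMSO. The fold change of AC093415.2 ran from -2.81 to 0.10 over the lists left out.

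Against coding-gene introns, the difference in median −log10 p was -0.39 with equal list sizes and -0.053 as a mean over genes. The width difference was 0.50 nt as a mean over genes and 0.0 nt without MIRLET7BHG and C22orf34, and the log2 enrichment difference without them was -0.0080. Position differed by -0.024 without MIRLET7BHG. Without C22orf34 as well, the position of members was the higher in every list but SKBG-1(R) replicate 2. Overlap with the other replicate differed by -1.41 points with equal list sizes and -2.34 as a mean over genes. The cause of these turns was not tested, and the proximal share stayed lower in all alternatives run. No read depth is given, so a host absent from a short list cannot be told from an unbound one.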
